A study of Zea mays with 6 samples.

Results

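The benzoxazinoid genes of maize are described here in 6 leaf RNA-seq libraries. They are 9 genes, bx1, bx2, bx3, bx4, bx5, bx7, bx8, bx10 and bx13, chosen by identifier for their place in this defence pathway out of 44351 genes listed in each library, and all 9 were found. Their names come with that choice: neither the files nor the reference table used here pair these identifiers with names. The plants were of KN5585, an inbred line: 3 libraries are from non-transgenic controls (CK) and 3 from plants of 1 transgenic strain (T), for which the series title names overexpression of ZmSUS1, a sucrose synthase gene. The sources used here give neither the promoter of the transgene nor the age of the plants. The sample labels give 3 days and the series text 5 days of drought for both groups, but the treatment label reads normal for the controls and transgenic for the others. If the controls were watered, drought and transgene cannot be told apart in any difference below.

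Benzoxazinoids are indole-derived defence compounds of grasses, stored as glucosides and released as toxic aglucones such as DIMBOA when tissue is damaged. BX1, an indole-3-glycerol phosphate lyase, makes free indole from an intermediate of tryptophan synthesis. The cytochromes P450 BX2, BX3, BX4 and BX5 then add oxygen in sequence to give DIBOA. BX8 is a glucosyltransferase that attaches glucose, BX7 is an O-methyltransferase of the step to DIMBOA glucoside, and BX10 and BX13, an O-methyltransferase and a dioxygenase, modify DIMBOA glucoside further. In maize most of the early genes lie in 1 cluster, and the pathway is best known from seedlings. The order bx1, bx2, bx3, bx4, bx5, bx8, bx7, bx10, bx13 follows these steps and is used below.

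The pathway genes changed in opposite directions between the groups. The genes bx4, bx5 and bx7 were higher in the transgenic leaves, 11.9-fold, 2.27-fold and 4.21-fold in FPKM (fragment numbers per gene length and library size). The genes bx2 and bx8 were lower, bx8 by 3.58-fold and bx2 from a mean of 3.51 to 0.073 FPKM. These sizes are as deposited. After scaling for a shift shared by most genes bx8 was 2.23-fold lower. The rises of bx4, bx5 and bx7 were then 19.0-fold, 3.65-fold and 6.77-fold. The genes bx3 and bx13 were lower as deposited but not after scaling for a shift shared by most genes. The first gene, bx1, was near 0 throughout, and bx10 was listed at 0 in all 6 libraries.

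Each gene was tested with limma on log2(FPKM + 1), with Benjamini-Hochberg adjustment over the 22944 genes averaging 0.5 FPKM or more, and a threshold of 0.05. Of the 9 genes, 7 passed this filter, and 3 were called higher and 4 lower. The bx2 and bx13 genes passed it through their control level, with transgenic means below 0.5 FPKM, so their presence among the tested genes already favours a fall. Over all tested genes 16.3% were called higher and 67.7% lower, so a lower call by itself does not set a gene apart. The libraries of the groups did not overlap in any of the 7 tested genes, 3 higher and 4 lower in T, against 16.6% higher and 67.9% lower among all tested genes. The median log2 difference was -0.52 over the 7 genes and -0.56 over all tested genes. Since most genes were lower as deposited, median-of-ratios scaling, which removes a shift shared by most genes, was also applied. Its factors were 1.26 to 1.27 in the control and 0.786 to 0.793 in the transgenic libraries, and the median log2 difference of all tested genes was then -0.02. After scaling 3 of the 7 genes were higher, 2 were lower and 2 were not called, against 36.3% higher and 36.9% lower among all tested genes. The libraries then did not overlap in 3 higher and 2 lower genes and overlapped in 2, against 37.5% higher and 38.4% lower without overlap among all tested genes. The p-values reflect the spread among these 6 libraries alone; the series calls them biological replicates but does not say that each came from its own plant. In whole leaf samples, fewer cells of a type and less RNA per cell cannot be told apart. The leaf label could not be checked against marker genes, because none of the 13 marker symbols looked up was paired with an identifier of the files.

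**Figure D1:**
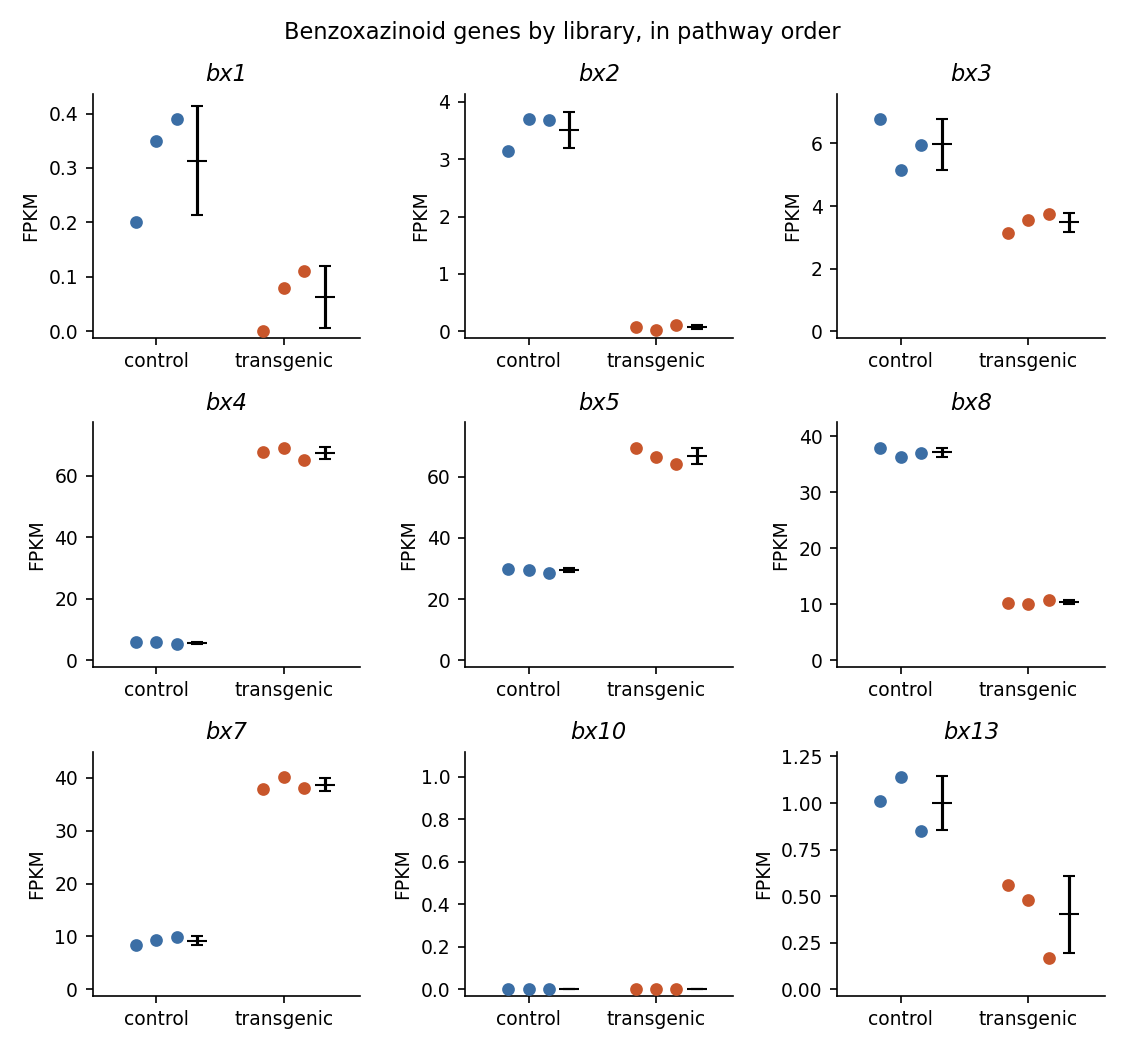
FPKM (y axis, a scale per panel) of the 9 genes in each of the 3 control and 3 transgenic libraries, in pathway order; points are libraries, and the bar beside them is the mean with its SD. The groups are apart in every panel but that of bx10, with bx4, bx5 and bx7 higher and bx1, bx2, bx3, bx8 and bx13 lower in the transgenic libraries.

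The entry gene bx1 (Zm00001d048709), the lyase that supplies indole, read 0.20, 0.35 and 0.39 FPKM in the CK libraries, against 0, 0.08 and 0.11 FPKM in T libraries. The T values all lay below the CK values. With a mean of 0.188 FPKM over all libraries it was not tested. In a fit without a filter on low values its log2 difference was -0.30 ± 0.07 (SE, limma adjusted p = 0.0097). This was close to the median of all genes in that fit, -0.26, where 49.3% of genes were called lower. Of all genes in that fit, 47.3% had a log2 difference below that of bx1, so the call does not set bx1 apart. The level of bx1 per length was far below that of the P450 gene bx5 in both groups.

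The first P450 gene, bx2 (Zm00001d048710), which oxidises indole, read 3.14, 3.70 and 3.68 FPKM in the CK libraries, against 0.08, 0.03 and 0.11 FPKM in T libraries. Every T library was close to 0 and below every control. The gene passed the 0.5 FPKM filter through its control level, which already favours a fall. The log2 difference was -2.07 ± 0.10 (SE, limma adjusted p = 2.0e-07), or -1.78 after scaling. With a pseudocount of 0.1 it was -4.40, since the pseudocount sets much of the size at such levels. Values this low may rest on few fragments, and the limma test has no term for counting error.

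The next P450 gene, bx3 (Zm00001d048702), read 6.78, 5.16 and 5.96 FPKM in the CK libraries, against 3.14, 3.57 and 3.73 FPKM in T libraries. As deposited the groups did not overlap, and the log2 difference was -0.63 ± 0.10 (SE, limma adjusted p = 0.00040). This was close to the shift of all tested genes. After median-of-ratios scaling the groups overlapped, at 4.71 ± 0.64 and 4.41 ± 0.38 scaled FPKM (SD, n = 3 each), and the log2 difference of -0.07 did not pass (95% interval -0.31 to 0.16, limma adjusted p = 0.53).

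On the log2(FPKM + 1) scale the largest difference among the tested members was that of bx4 (Zm00001d048703). With a pseudocount of 0.1 that of bx2 was larger in size (-4.40 against 3.55). BX4 is the P450 whose reaction enlarges the ring to the benzoxazinone skeleton. The bx4 gene read 5.78, 5.96 and 5.27 FPKM in the CK libraries, against 67.8, 68.9 and 65.0 FPKM in T libraries. The lowest transgenic library was far above the highest control. The log2 difference was 3.36 ± 0.05 (SE, limma adjusted p = 2.4e-10), or 3.98 after scaling, which is 19.0-fold in scaled FPKM. Of all tested genes, 99.8% had a log2 difference below that of bx4, as deposited and after scaling.

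The last P450 gene, bx5 (Zm00001d048705), whose enzyme completes DIBOA, read 29.9, 29.5 and 28.7 FPKM in the CK libraries, against 69.3, 66.5 and 64.2 FPKM in T libraries. The groups were well apart, with a spread of a few percent in each. The log2 difference was 1.16 ± 0.04 (SE, limma adjusted p = 1.8e-08), or 1.82 after scaling. Its difference was above that of 95.6% of all tested genes.

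The glucosyltransferase gene bx8 (Zm00001d048707) moved the other way. It read 37.9, 36.3 and 37.0 FPKM in the CK libraries, where it was the most abundant of the 9 genes, against 10.25, 10.04 and 10.8 FPKM in T libraries. No T library came near the controls. The log2 difference was -1.75 ± 0.04 (SE, limma adjusted p = 3.8e-09), or -1.10 after scaling (limma adjusted p = 6.8e-08), a 2.23-fold lower scaled level. Only 5.13% of all tested genes had a lower log2 difference.

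Of the genes for later steps, the O-methyltransferase gene bx7 (Zm00001d049179) rose. It read 8.31, 9.29 and 9.97 FPKM in the CK libraries, against 37.9, 40.1 and 38.1 FPKM in T libraries, with no overlap. The log2 difference was 1.97 ± 0.06 (SE, limma adjusted p = 1.8e-08), or 2.60 after scaling, above that of 98.7% of all tested genes as deposited.

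The dioxygenase gene bx13 (Zm00001d007718), whose enzyme acts on DIMBOA glucoside, was low in both groups. It read 1.01, 1.14 and 0.85 FPKM in the CK libraries, against 0.56, 0.48 and 0.17 FPKM in T libraries. All transgenic values lay below the controls, and the log2 difference was -0.52 ± 0.14 (SE, limma adjusted p = 0.0078). After scaling it was -0.26, the groups overlapped and the test was not passed (95% interval -0.61 to 0.09, limma adjusted p = 0.16). The other gene acting on that glucoside, bx10 (Zm00001d029359), was listed at 0 in every library, so nothing can be said of a difference. In B73, bx10 belongs to a group of closely similar O-methyltransferase genes, and the sources used here do not say how reads shared by such copies were counted. The same limit holds for the related P450 genes.

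**Figure D2:**
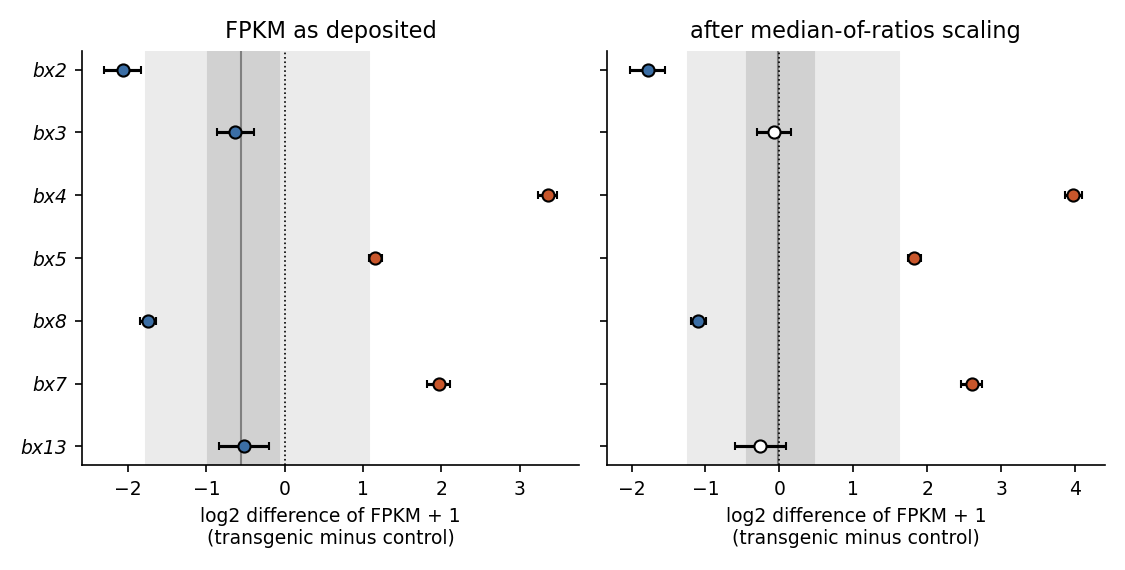
Log2 difference of FPKM + 1 (x axis, transgenic minus control) of the 7 tested genes with its 95% interval from limma, as deposited (left) and after median-of-ratios scaling (right). Orange points were called higher, blue lower and white not called; the light and dark bands hold the middle 90% and 50% of all tested genes and the grey line is their median, and bx4, bx5 and bx7 lie to the right of the light band in both panels.

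Ranks within a library do not depend on scaling between libraries. By FPKM among all 44351 genes, bx4 had a mean percentile of 68.0 in CK and 97.1 in T libraries. The percentile of bx5 went from 89.8 to 97.1 and that of bx7 from 73.9 to 94.8. The percentile of bx8 went from 92.1 down to 82.3 and that of bx2 from 62.9 down to 39.6. The percentile of bx3 was 68.5 and 68.2 and that of bx13 was 52.7 and 49.2, and for both genes the libraries of the groups overlapped.

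The order of the levels, which FPKM gives per length, differed between the groups. In the control libraries it ran from bx8 (37.1 ± 0.8 FPKM, SD, n = 3) through bx5 (29.4 ± 0.6) and bx7 (9.19 ± 0.83) to bx3 (5.97 ± 0.81) and bx4 (5.67 ± 0.36), which overlapped each other. Below them came bx2, bx13 and bx1, each apart from the next. In the transgenic libraries bx4 (67.2 ± 2.0 FPKM, SD, n = 3) and bx5 (66.7 ± 2.6) led and overlapped each other. They were followed by bx7 (38.7 ± 1.2), bx8 (10.4 ± 0.4) and bx3 (3.48 ± 0.31), then bx13, with bx2 and bx1 overlapping at the bottom.

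The summed level of the 9 genes was 92.1 ± 0.8 FPKM (SD, n = 3) in CK and 187.0 ± 4.2 FPKM (SD, n = 3) in T libraries. It made up 0.0134% and 0.0225% of the total FPKM of a library. After median-of-ratios scaling the sum was 72.7 ± 0.7 in CK and 237.0 ± 5.0 scaled FPKM in T libraries (SD, n = 3 each). The size of the rise thus depends on the scaling. The gene bx8 held 40.3% ± 0.5 (SD, n = 3) of the summed level of the 9 genes in CK and 5.54% ± 0.32 in T libraries. The gene bx4 held 6.16% ± 0.39 and 35.9% ± 0.3, and bx7 held 9.99% ± 0.97 and 20.7% ± 0.6. The share of bx5 was closer, 31.9% ± 0.6 and 35.7% ± 0.9. In the transgenic libraries bx4, bx5 and bx7 together made up 92.3% ± 0.4 of the sum, against 48.0% ± 0.9 in the control. The 4 P450 genes differed among themselves too: within their own sum bx5 held 66.0% in CK and 48.5% in T libraries, bx4 held 12.7% and 48.9%, bx3 held 13.4% and 2.54%, and bx2 held 7.89% and 0.054%. These shares are a description and were not tested.

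**Figure D3:**
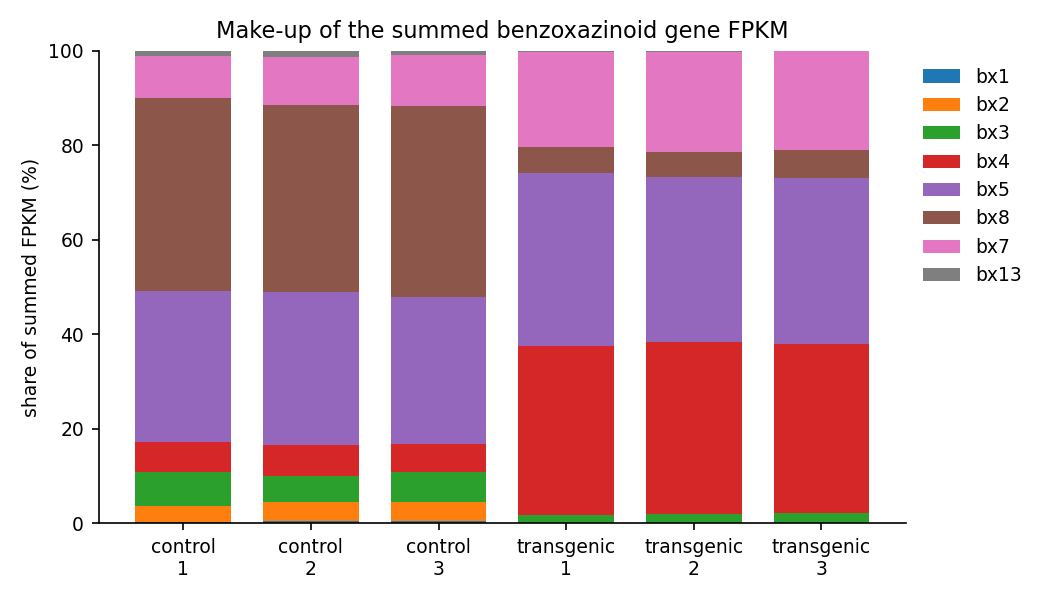
Share of each gene in the summed FPKM of the benzoxazinoid genes (y axis, percent) in each of the 6 libraries, stacked in pathway order from the bottom; bx10, at 0, is not drawn. The bx8 segment shrinks from about 40.3% in the control to 5.54% in the transgenic libraries and the bx4 segment widens from 6.16% to 35.9%, with little spread within a group.

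The 9 genes are not the whole pathway, so neighbours in the order above need not be consecutive steps. Ratios between such neighbours, which also do not depend on scaling between libraries, were compared by an exact permutation test over libraries. Of 8 such ratios 5 could be computed, the others holding a gene listed at 0. In all 5 the groups did not overlap (exact permutation test, two-sided p = 0.1 each, the lowest possible with 3 libraries a side). The 5 ratios share genes and are not separate observations. How often ratios of other gene pairs keep the groups apart was not computed. Single tested genes often did so, 16.6% higher and 67.9% lower in T libraries as deposited. After median-of-ratios scaling these shares were 37.5% and 38.4%. Separation by itself therefore does not set these pairs apart. The ratio of bx4 over bx3 was 0.853, 1.16 and 0.884 in CK and 21.6, 19.3 and 17.4 in T libraries, so the near balance of these P450 genes in the control was not seen in the transgenic leaves. The ratio of bx5 over bx4 was 5.17, 4.96 and 5.44 in CK and 1.02, 0.965 and 0.988 in T libraries. Here the balance lay on the transgenic side.

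The ratio of bx8 over bx5, that is of a glucosyltransferase gene over the last P450 gene, was 1.27, 1.23 and 1.29 in CK and 0.148, 0.151 and 0.168 in T libraries. The ratio of bx7 over bx8 was 0.219, 0.256 and 0.269 in CK and 3.70, 3.998 and 3.54 in T libraries. The gene bx8 was thus above bx5 and bx7 in every control library and below both in every transgenic library. The log2 ratio of bx3 over bx2 was 0.76 ± 0.32 in CK and 5.76 ± 0.99 in T libraries (SD, n = 3 each), and its T values rest on bx2 levels near 0.

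**Figure D4:**
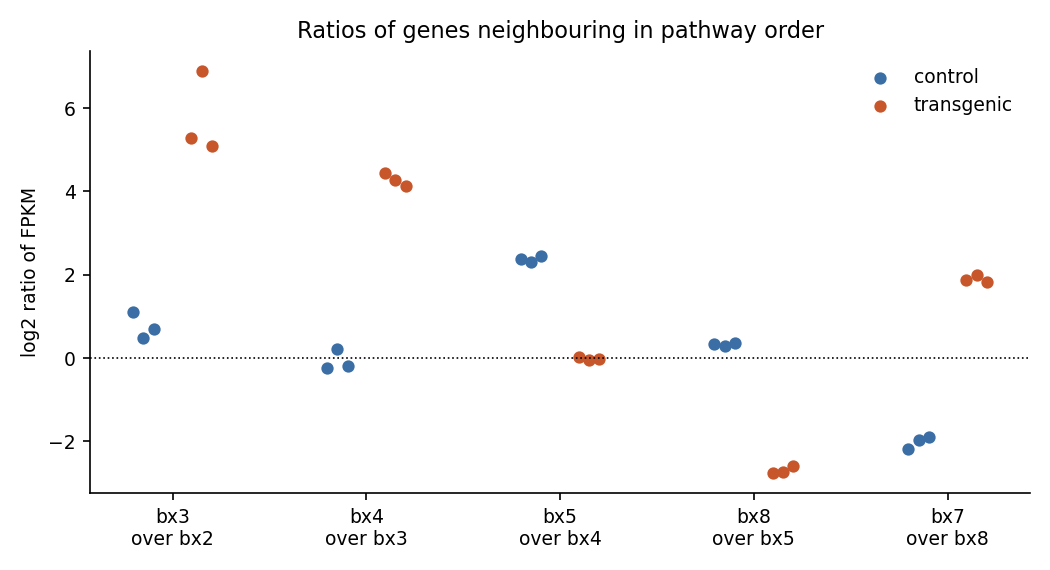
Log2 ratio of FPKM (y axis) for 5 pairs of genes neighbouring in pathway order, with 1 point per library, control blue and transgenic orange. The groups are apart for every pair: the bx5 over bx4 ratio has a mean of 2.37 in CK and -0.012 in T libraries, and that of bx7 over bx8 changes sign, from -2.02 to 1.90.

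The genes of the cluster did not all differ in 1 direction. By identifier number, which follows the order of gene models along a chromosome, bx3, bx4, bx5, bx8, bx1 and bx2 stand together in this order. RefSeq lists genes of the same names in the same order in its Zm-B73-REFERENCE-NAM-5.0 assembly, with at most 1 other gene between neighbours. Along this row bx4 and bx5 were higher and bx8 and bx2 lower, both as deposited and after median-of-ratios scaling. The gene bx3 was lower as deposited but not after that scaling, and bx1 was not tested.

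Between 10 numbers below bx3 and 10 above bx2 the files list 25 identifiers, of which 19 are not among the 9 genes. Of these 19, 11 could be tested: 5 were higher, 4 lower and 2 not called, against 16.3% higher and 67.7% lower among all tested genes. After scaling 8 were higher, 1 lower and 2 not called, against 36.3% and 36.9%. Higher genes with CK means of 0.173 and 0.223 FPKM and a lower gene with a T mean of 0.31 FPKM passed the filter only through the other group. Their presence among the tested genes already favours a call in that direction. With 11 genes these counts are a description. The files do not pair them with names. The identifier numbered between bx4 and bx5 stood at 0.69, 1.08 and 1.02 FPKM in CK and at 2.55, 2.02 and 1.86 FPKM in T libraries, with a log2 difference of 0.70 ± 0.13 (SE, limma adjusted p = 0.00083). Its level was low beside the 67.2 and 66.7 FPKM of the P450 genes on either side.

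Of the 19, the largest rises on the log2(FPKM + 1) scale were in Zm00001d048720, at 3.53 ± 1.38 FPKM in CK and 18.1 ± 0.6 FPKM in T (limma adjusted p = 6.9e-06, SD, n = 3 each), and in Zm00001d048719, at 0.223 ± 0.215 and 2.53 ± 0.50 FPKM (limma adjusted p = 2.9e-05). The latter passed the filter through its transgenic level, which favours a rise. The largest falls on the same scale, which gives low genes less weight than their fold, were in Zm00001d048712, from 3.34 ± 1.08 to 1.04 ± 0.18 FPKM (limma adjusted p = 0.00045), and in Zm00001d048692, from 20.8 ± 0.5 to 14.0 ± 0.6 FPKM (limma adjusted p = 7.6e-06). After scaling the fall of Zm00001d048712 was still called (limma adjusted p = 0.010), whereas Zm00001d048692 turned to a log2 difference of 0.10 that did not pass (limma adjusted p = 0.084). No value of these neighbours reached that of bx4 in log2 difference.

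**Figure D5:**
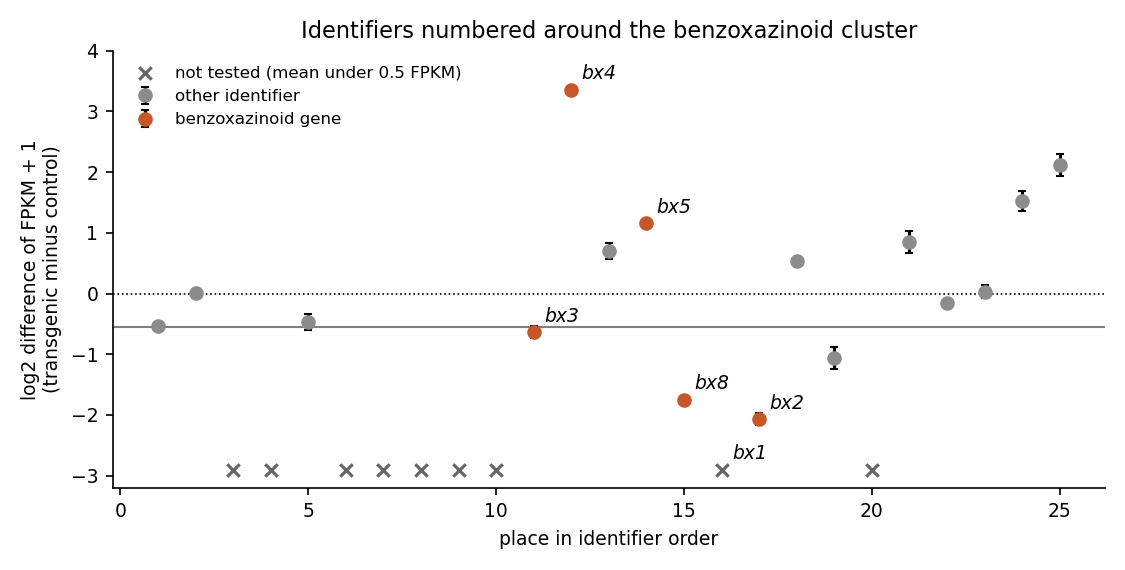
Log2 difference of FPKM + 1 as deposited (y axis, transgenic minus control, with its SE from limma) for the 25 identifiers around the cluster, by their place in identifier order (x axis). Orange points are benzoxazinoid genes, grey points other identifiers and crosses genes that were not tested, and the grey line is the median of all tested genes, -0.56; bx4 at 3.36 and bx8 at -1.75 stand close together in the row.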

How the data were processed

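Each library has 1 deposited table of FPKM values with 2 decimals, per the file headers. The kit was SMARTER mRNA-Seq, per the labels' protocols. DESeq2 and the mouse build mm10 are named without a role, per the submitters' processing notes; the sources used here give no aligner, counting program, strand setting or maize build.

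FPKM holds no fragment numbers, so depth is unknown and no counting intervals were computed. Among genes of 0.3 to 2 FPKM the fullest bin of log2 ratios between libraries (width 0.02) was centred at -0.01 in all 6 pairs within groups. That bin takes in equal values, so no offset within groups is shown. In 8 of 9 pairs between groups the fullest bin was centred at 0.03 to 0.05 (0.63 in the other). Total FPKM was 684047 to 689548 in control and 829541 to 831082 in transgenic libraries.

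Gene names come from the list of members: 0 of 9 identifiers, but 8 of 9 names, are in the reference table. Of 11 further pathway genes fixed by symbol (bx6, bx9, bx11, bx12, bx14 and others) and 13 cell type markers, 0 were paired with an identifier of the files, so neither list gave a result. Named genes were all members and, within 10 identifier numbers of the cluster, up to 2 rises and 2 falls. Members and lists were chosen with earlier results of these data known.

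Tests used limma 3.58.1 in R 4.3.3 (group as the only term, intensity trend, two-sided) and exact permutation tests in Python 3.11.15. The limma code was tried on simulated data. These held no shift shared by most genes, so the trial does not bear on that shift. Replicate numbers were not treated as pairs: deviations of same-numbered libraries correlated at 0.002, -0.05 and 0.002. Alternatives were another pseudocount, filter, scaling, variance model or threshold, a replicate block, and leaving out each library.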

Additional observations from a re-analysis of the deposited data

How the results depend on the processing

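The calls of bx2, bx4, bx5, bx7 and bx8 kept direction and side of the threshold under every alternative in which they were tested. Where the 0.5 FPKM filter was used, bx2 passed it through its control level, which favours a fall. The calls of bx3 and bx13 were lost with median-of-ratios scaling (log2 differences -0.074 and -0.26) and quantile normalisation (-0.033 and -0.17), which remove the shift shared by most genes. The count of lower genes, 4, was therefore 2 with these scalings, and 2 with a minimum of 2 FPKM, which leaves out bx2 and bx13. On equal totals bx3 and bx13 stayed lower (log2 differences -0.86 and -0.63, limma adjusted p = 4.9e-05 and 0.0023). The 3 higher genes were called under all 16 alternatives. The median over the genes, -0.52, became -0.76 at the pseudocount of 0.1, -0.41 when no filter was set, 1.16 at the 2 FPKM minimum (fewer genes tested), -0.074 after median-of-ratios scaling, -0.63 on equal totals, -0.033 after quantile normalisation, and from -0.58 to -0.39 without single libraries; it was -0.39 without T replicate 3. With a replicate block 3 genes were higher and 4 lower, as in the main test; the numbers do not pair the libraries. The ratios and shares kept their direction without each library. Depth is unknown, so how many fragments stand behind the low values of bx1, bx2, bx10 and bx13 cannot be given.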
